A study of Mus musculus with 20 samples.

Results

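Most subunits of the mitochondrial oxidative phosphorylation machinery are encoded in the nucleus, and the genes described here are those of them whose names follow the standard subunit prefixes. A gene was included when its symbol consisted of a Nduf, Sdh, Uqcr, Cox or Atp5 prefix with the letters and digits of a structural subunit, or was Cyc1, and when it lay outside the mitochondrial chromosome. The choice used names and chromosomes only and no measured value. It found 84 of the 54446 gene IDs in the expression tables, under 83 names, since Atp5o has 2 IDs. Complex I contributed 35 genes, of which 7 are core and 28 accessory, complex II 4, complex III 9, complex IV 19 and complex V 16, and Atp5s, a factor linked to ATP synthase and not one of its structural subunits, made up the rest. Ndufa4 was counted with complex IV, and Cox6c2 is annotated as a processed pseudogene.

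The study grew self-organizing aggregates from mouse embryonic stem cells of the line F1G4, which carried fluorescent reporters for T and Sox2 (T::H2B-mCherry/Sox2::H2B-Venus). All aggregates received a pulse of 3 µM CHIR99021, an inhibitor of the kinase GSK3 that activates Wnt signalling, after 48 h. Bulk RNA was sequenced in 5 groups of 3 biological replicates: aggregates at 96 h (96h, 10 structures pooled per library), and at 120 h, with 6 pooled per library, gastruloids kept out of Matrigel (Gastruloid) and 3 kinds of structure embedded in this extracellular matrix extract. The matrix alone defines TLSMG, CHIR99021 given with it defines TLSMGC, and TLSMGCL received LDN as well, which blocks BMP receptors. Structures were picked for an asymmetric pole, all groups derive from a single reporter line, and the single-cell samples of the series were not analysed here.

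Oxidative phosphorylation passes electrons from NADH and succinate through complexes I, II, III and IV to oxygen and uses the resulting proton gradient to make ATP in complex V. Complexes I, III, IV and V combine subunits made in the cytosol with subunits made inside the mitochondrion, whereas complex II is encoded in the nucleus alone. Pluripotent cells use glycolysis to a degree that differs between pluripotent states, and its balance with oxidative phosphorylation can change as embryonic cells differentiate.

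Promoters of these genes are known to carry sites for NRF1, a transcription factor of mitochondrial biogenesis, for ETS family factors such as GABPA, and for YY1. RefSeq promoter windows on GRCm38.p6, from 250 bases before to 50 bases after the start site, matched 65 of the 83 names. The NRF1 letters GCGCATG, searched on both strands, stood in 13 of the 65 promoters (20%), in 4.41% of the promoters of all 27025 genes in that table and in 8.26% of those of 9607 genes tested below. The ETS letters CCGGAAG on either strand stood in 16 member promoters (24.6%), against 9.93% of all genes and 21% of tested genes. The YY1 letters AAGATGG on either strand stood in 10 (15.4%), against 7.28% and 8.57%. A match of letters describes these windows and is not a measured binding site. The stretches around the NRF1 letters of 4 members are shown because these genes, which share the letters before the start site, went different ways in the data below: Ndufa11 was highest in gastruloids, Cox5b was lower in TLSMG than in Gastruloid and 96h, Ndufb6 was called higher at 120 h in both, calls that some scalings given below do not hold, and Sdhb was called in no comparison. Capitals mark the match, which in Sdhb is CATGCGC, the letters as read from the other strand.
Ndufa11: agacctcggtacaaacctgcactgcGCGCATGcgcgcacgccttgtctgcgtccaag
Cox5b: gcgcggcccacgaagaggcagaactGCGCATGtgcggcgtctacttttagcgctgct
Ndufb6: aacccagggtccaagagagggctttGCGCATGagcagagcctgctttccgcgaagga
Sdhb: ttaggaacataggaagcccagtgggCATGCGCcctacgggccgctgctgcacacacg
On GRCm38.p6 the Ndufa11 stretch is chr17:56717677-56717733 on the plus strand, and its match begins 60 bases before the start site. The Cox5b stretch is chr1:36691411-36691467 on the plus strand, with the match 51 bases before the start. The Ndufb6 stretch is chr4:40279467-40279523 on the minus strand, with the match 77 bases before the start. The Sdhb stretch is chr4:140961193-140961249 on the plus strand, with the match 53 bases before the start.

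Expression was read as TPM, the transcript share scaled to a fixed library total, which corrects for gene length, so levels can be compared between genes. The 84 genes together took 1.73% to 2.03% of all TPM in the 15 libraries. A gene entered the tests when its mean over the libraries was at least 1 TPM, which 14290 genes and 78 of the 84 members did. The 6 others were largely silent paralogues, described at the end. Differences are given on the log2(TPM + 1) scale from a single limma model over the 5 groups, with Benjamini-Hochberg adjustment over all 14290 genes, and a gene is called changed at an adjusted p under 0.05. The median standard error of a member's log2 difference was 0.08, with a range of 0.05 to 0.19. TLSMG libraries enter 4 of the 6 comparisons, so those comparisons are not independent of each other.

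Some facts of the libraries bear on everything that follows. The third TLSMGC library and the second TLSMGCL library stood apart from the other libraries of their groups, with the highest cytosolic ribosomal protein TPM of all libraries (199991 and 195864, the others 143556 to 182351) and the lowest chrM TPM of their groups (6784 and 3703). Other libraries differed in single measures. The summed TPM of Gm42418 and Gm23935, a pair of abundant genes outside the protein-coding set, was 16855 in the third TLSMG, 20566 in the first TLSMGC and 8590 in the third TLSMGC library, against 41937 to 55918 in the rest. The TPM of all chrM genes was 15201 in the first TLSMG library and 10011 and 10434 in the other two. TPM recomputed over protein-coding genes outside chrM, which leaves out both, is among the alternatives. The summed TPM of endothelial markers (Kdr, Cdh5, Pecam1) was 120.3 to 152 in TLSMG against 13.7 to 18.0 in Gastruloid and 4.39 to 7.33 in 96h. That of presomitic markers (T, Tbx6, Msgn1) was 430 to 671 in 96h and 13.6 to 29.2 in Gastruloid and TLSMG. Neural tube markers (Sox1, Sox2, Pax6) summed to 125 to 173 in Gastruloid and 18.9 to 34.7 in 96h, and the somite markers Meox1, Tcf15 and Uncx to 515 to 928 in these 2 groups. In heart and muscle, Myod1, Myog and Ttn were each under 0.1 TPM in every group, as were the erythroid genes Hbb-bh1, Hba-x and Gata1. In bulk samples of this kind, fewer cells of a type and less RNA per cell cannot be told apart, and the part of these cell mixtures in the results was not tested.

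The members were highly expressed: 63 of the 78 had a mean above 100 TPM. ATP synthase led, with Atp5b (the catalytic beta subunit) at a mean of 1554 TPM and a range of 1328 to 1825 over the libraries, followed by Atp5a1 (the alpha subunit) at 1106 TPM and Atp5g3 (a gene for the membrane ring's c subunit) at 622 TPM. In complex IV, Cox8a reached 588 TPM, Cox4i1 576 TPM and Cox6b1 491 TPM. The median member level was 342 TPM in complex V, 293 in complex IV, 247 in complex III, 192 in complex II and 129 in complex I, where levels ran from 37.4 TPM (Ndufb4) to 427 TPM (Ndufb8). Levels thus spanned a wide range within a complex, although its subunits are built into it in fixed numbers. Of the 75-base windows of Ndufb4 transcripts, 35.2% also occur in other genes, which makes the low end of complex I uncertain.

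Differences between groups were small. For each gene the highest group mean was divided by the lowest, both as TPM + 1: the median ratio was 1.25 over the 78 members and 1.46 over all tested genes, and it reached 1.5 in 8 members (10.3%) and in 46.1% of all genes. Those 8 were Cox7a1 (2.52), Ndufa11 (2.01), Cox6b2 (1.95), Atp5e (1.80), Atp5s (1.66), Cox6c2 (1.65), Ndufb8 (1.61) and Cox6c (1.52). The least variable were Ndufs3, a core subunit of complex I (1.06), and Sdhc and Sdhb of complex II (1.08 and 1.09). The median level was 179 TPM in the members and 17.4 TPM in all tested genes, and the ratios were not compared at like level. An F test across the 5 groups called 53 of the 78 members (all genes 73.5%), and one across the 4 groups at 120 h called 45 (all genes 62.7%). The remaining description therefore concerns which members moved within a narrow range.

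The summed TPM of the 84 genes was 18898, 19317 and 19473 in the 96h libraries, 19690, 19689 and 19342 in Gastruloid, and 17478, 17335 and 17928 in TLSMG. It was 18854, 18214 and 20316 in TLSMGC and 18145, 20122 and 18436 in TLSMGCL. All 3 TLSMG libraries lay below every other library. The group means were 19229 ± 297 (SD, n = 3), 19574 ± 200, 17581 ± 310, 19128 ± 1078 and 18901 ± 1067, in the order above. The difference of TLSMG was thus -10.2% from Gastruloid and -8.57% from 96h, and TLSMGC was 8.80% and TLSMGCL 7.51% above TLSMG. A single library carried much of each of these rises: without the third TLSMGC library, TLSMGC was 5.42% above TLSMG, and without the second TLSMGCL library, TLSMGCL was 4.04% above it. Gastruloid and 96h, 1.79% apart, overlapped, as did TLSMGCL and TLSMGC. The sums are descriptions without a test.

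**Figure D1:**
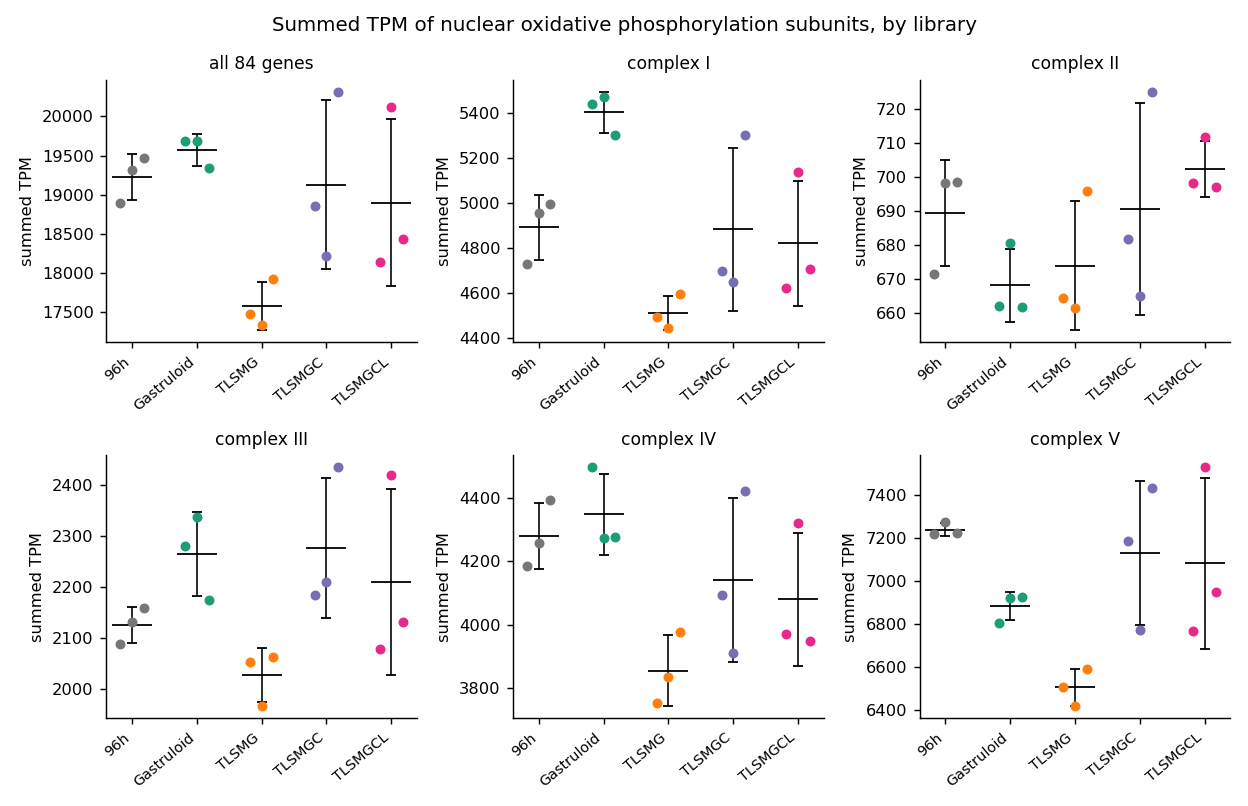
Summed TPM per library (points) for all 84 genes and for each of complexes I to V, with the group mean (line) and SD (bars, n = 3) on the vertical axis and the 5 groups on the horizontal axis. The TLSMG libraries are the lowest for all 84 genes, whereas the group means of complex II on this scale lie between 668 and 702 TPM.

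On the TPM scale the complexes differed in which group had the highest mean. Complex I summed to 4892 ± 144 TPM in 96h, 5402 ± 90.8 in Gastruloid, 4511 ± 76.8 in TLSMG, 4882 ± 362 in TLSMGC and 4820 ± 277 in TLSMGCL, so that its mean was highest in gastruloids. Complex V had its highest mean at 96 h, with 7239 ± 28.9 TPM, against 6884 ± 67.0 in Gastruloid and 6506 ± 86.3 in TLSMG. Complex III had its highest mean in TLSMGC (2276 ± 137 TPM) and its lowest in TLSMG (2028 ± 52.4). The TLSMGC libraries read 2184, 2210 and 2434 TPM there, against a Gastruloid mean of 2264 ± 82.5. That highest rank thus rested on the third TLSMGC library, which stood apart. Complex IV ran from 3856 ± 112 in TLSMG to 4349 ± 128 in Gastruloid. Complex II stayed between 668 ± 10.8 in Gastruloid and 702 ± 8.18 in TLSMGCL. These orders depended in part on the scale. With median-of-ratios scaling, which sets the typical gene to no change, TLSMG had the lowest mean in all 5 complexes, and complex II ran from 608 ± 12.5 in TLSMG to 736 ± 49.5 in TLSMGCL. On that scale Gastruloid was still highest in complexes I and IV, and TLSMGCL had the highest mean in complexes II, III and V. In complex V the TLSMGCL libraries read 6840, 8391 and 7077, and the 96h mean was 7396 ± 54.1. In complex III they read 2101, 2696 and 2171, with a mean of 2323 against 2320 in TLSMGC. With median-of-ratios scaling, the highest ranks in complexes III and V thus rested on the second TLSMGCL library, which stood apart. Member by member, the TLSMG mean of TPM was the lowest of the 5 in 36 of 78 genes and the Gastruloid mean the highest in 36. These ranks were counted on the TPM scale only and not over all genes.

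**Figure D2:**
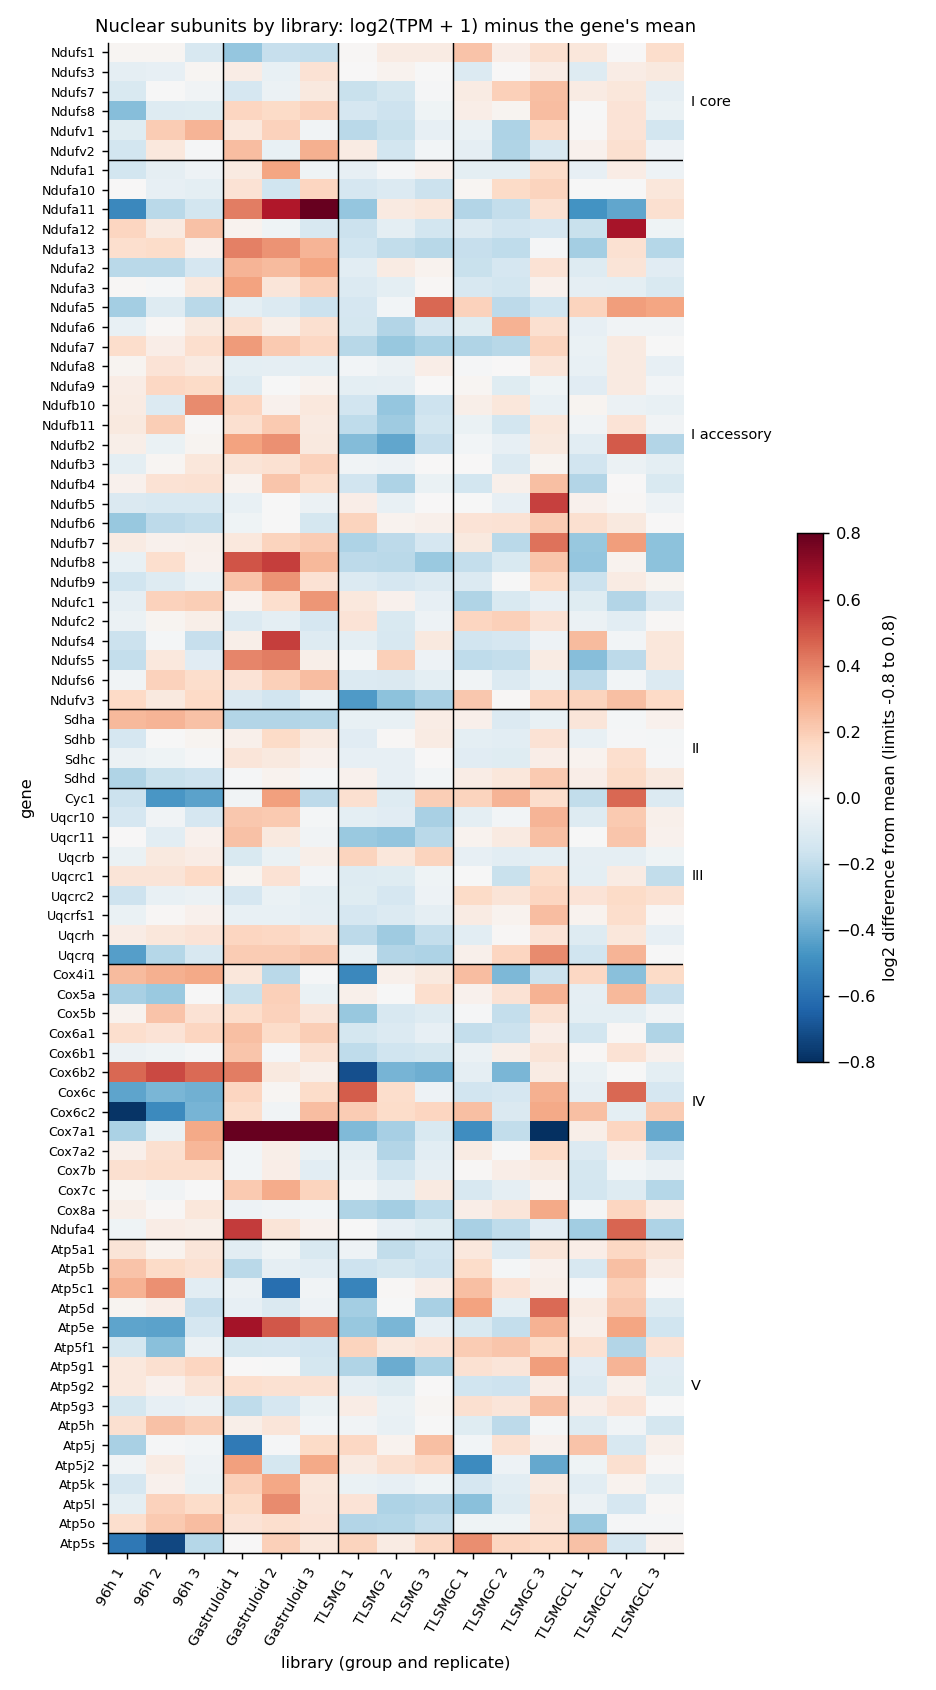
Level of 77 of the 78 tested members (rows, ordered by complex, core subunits of complex I first) in the 15 libraries (columns, by group), as log2(TPM + 1) minus the gene's mean over the libraries, with colours limited at ±0.8. A reader should see more blue (low) rows in the TLSMG columns and more red (high) accessory complex I rows in the Gastruloid columns.

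From 96 h to 120 h without Matrigel, members changed in both directions. Gastruloid minus 96h called 18 members higher and 7 lower of 78, with 20.8% of all genes called higher and 20.5% lower, or 41.2% in either direction. The number called higher was thus near the share among all genes. The member median was 0.08 and the all-gene median 0.00 on the log2 scale. Complex I had 9 higher (Ndufs8, Ndufs5, Ndufa2, Ndufa3, Ndufa11, Ndufa13, Ndufb6, Ndufb8, Ndufb9) and 4 lower (Ndufs1, Ndufa8, Ndufa9, Ndufv3). Complex II had Sdhd higher and Sdha lower, complex III Uqcrq higher, complex IV Cox6c, Cox6c2, Cox7a1 and Cox7c higher and Cox7b lower, and complex V Atp5e and Atp5k higher and Atp5b lower. Atp5s was also higher.

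Ndufa11, an accessory subunit in the membrane arm of complex I (chr17:56717767-56722141 on the plus strand, mm10), read 54.8, 67.6 and 71.2 TPM in 96h and 105, 123 and 164 TPM in Gastruloid. Every gastruloid library exceeded every 96h library, and TLSMG (63.4, 82.8 and 84.1 TPM), TLSMGC (66.9, 68.8 and 85.6) and TLSMGCL (56.1, 58.9 and 86.1) lay near the 96h level. The Gastruloid minus 96h difference was 0.99 ± 0.19 (log2, SE; limma adjusted p 0.000904), from means of 131 ± 30.0 and 64.5 ± 8.61 TPM (SD, n = 3). Of the 75-base windows of Ndufa11 transcripts, 1.06% also occur in another gene.

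Atp5e encodes the epsilon subunit of the ATP synthase head (chr2:174461072-174464105 on the minus strand). It read 221, 219.9 and 270.3 TPM in 96h and 471, 418 and 393 in Gastruloid, with no overlap between the groups. The difference was 0.85 ± 0.14 (limma adjusted p 0.00033). The Matrigel groups again lay lower, with means of 251 ± 28.1 TPM in TLSMG, 297 ± 54.0 in TLSMGC and 313 ± 52.4 in TLSMGCL. It thus parted from Atp5b, the beta subunit of the same head, which read 1808, 1722 and 1682 TPM in 96h against 1328, 1468 and 1460.1 in Gastruloid, a fall of 0.29 ± 0.08 (Gastruloid minus 96h, limma adjusted p 0.00863).

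Cox7a1, the heart and muscle paralogue of a small complex IV subunit (chr7:30184144-30186078 on the plus strand), was scarce: 2.46, 2.97 and 4.09 TPM in 96h and 6.22, 6.54 and 6.34 in Gastruloid. The rise was 0.84 ± 0.19 (limma adjusted p 0.00302), and the widely expressed paralogue Cox7a2 was not among the genes called in this comparison. The heart and muscle markers Nkx2-5, Tnnt2, Myl7, Myh6, Ttn, Actc1, Myod1 and Myog summed to 20.4 to 23.5 TPM in the Gastruloid libraries. The same sum was 8.64 to 18.7 TPM in 96h and lowest in TLSMG, at 4.46 to 5.21 TPM. TLSMGC libraries gave 4.66 to 9.57 TPM and TLSMGCL libraries 13.7 to 17.7. Of these 8 markers, 2 reached a mean of 1 TPM in Gastruloid. Their part in the Cox7a1 difference was not tested.

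Sdha, the flavoprotein of complex II that oxidizes succinate (chr13:74322254-74350280 on the minus strand), read 245, 247 and 241 TPM in 96h and 174 TPM in each Gastruloid library. The 3 gastruloid values differed by an SD of 0.0520 TPM around their mean. The fall was 0.49 ± 0.05 on the log2 scale (limma adjusted p 5.87e-06), the smallest adjusted p among the members in this comparison. TLSMG read 196, 196 and 213 TPM, TLSMGC 210.1, 189.7 and 197, and TLSMGCL 219, 203 and 210.0, all between the 96h and Gastruloid ranges. The other subunits of complex II were not called lower: Sdhd, a membrane anchor, was higher by 0.19 ± 0.05 (limma adjusted p 0.00819; 0.0515 with median-of-ratios scaling), and Sdhb and Sdhc were called in no comparison.

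Among the other genes named for their size of change, Cox6c2 went from 14.5 ± 2.20 to 23.6 ± 2.34 TPM (0.67, limma adjusted p 0.00109). As 45.2% of its 75-base windows also occur in Cox6c, which itself rose from 177 ± 3.31 to 252 ± 14.5 TPM, the reads of the pair cannot be fully told apart. Atp5s rose from 3.80 ± 0.872 to 6.23 ± 0.460 TPM (0.60, limma adjusted p 0.00231). Uqcrq, a small subunit of complex III, read 82.9, 96.2 and 103 TPM in 96h and 129.8, 129.7 and 132 in Gastruloid, a rise of 0.47 ± 0.11 (limma adjusted p 0.0042). The core subunit Ndufs1, which carries iron-sulfur clusters, fell from 102 ± 5.88 to 89.5 ± 4.39 TPM (fell by 0.19, limma adjusted p 0.0264).

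The direction of this comparison depended on how length was handled. Gene by gene, the Gastruloid minus 96h difference had r = -0.37 with log2 length across the 78 members and r = -0.12 across 14283 tested genes; genes are not independent replicates. The 39 shorter members had 13 called higher and 0 lower, and the 39 longer ones 5 higher and 7 lower. After a spline correction for GC content and length, 11 members were called higher and 19 lower and the member median was -0.03, and with FPKM 27 were higher and 1 lower, where all genes had 3597 higher and 2158 lower. Of the 18 higher calls, 11 remained under the correction, Ndufa11, Atp5e, Cox7a1 and Uqcrq among them, and Sdha stayed lower. The 7 not held were Ndufa3, Ndufa13, Ndufb6, Ndufs5, Cox6c, Cox7c and Atp5k. Median-of-ratios scaling called 13 higher and 4 lower, without the rises of Ndufa3, Ndufa13, Ndufb6, Ndufs5 and Sdhd and the falls of Ndufa8, Ndufa9 and Cox7b. All genes had 2935 higher and 3231 lower with that scaling and 2963 and 3426 under the correction. Without the first 96h library, the number of members called fell from 25 to 16, and all genes had 2481 higher and 2462 lower.

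From 96 h to 120 h in Matrigel, members fell more often than they rose. TLSMG minus 96h called 7 members higher and 21 lower of 78, with 33.5% of all genes called higher, 12.5% lower and 46.0% in either direction. The member median was -0.09 and the all-gene median 0.14, so the members lay 0.23 below the all-gene median. Complex IV had 6 lower (Cox5b, Cox6a1, Cox6b2, Cox7a2, Cox7b, Cox8a), complex V 5 (Atp5a1, Atp5b, Atp5g1, Atp5h, Atp5o), complex I 7 (Ndufa7, Ndufa9, Ndufa13, Ndufb10, Ndufb11, Ndufs6, Ndufv3), complex III Uqcrh and Uqcr11, and complex II Sdha. The higher ones were Ndufb6, Sdhd, Cyc1, Cox6c, Cox6c2, Atp5f1 and Atp5s.

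Cox6b2, known as the testis paralogue of a complex IV subunit at the dimer interface (chr7:4751792-4753094 on the minus strand), gave the largest change. It read 34.4, 36.1 and 34.2 TPM in 96h and 14.8, 18.9 and 18.6 in TLSMG, with 33.2, 26.2 and 25.5 in Gastruloid, 23.5, 19.0 and 25.9 in TLSMGC and 23.8, 24.6 and 23.4 in TLSMGCL. The 96h libraries lay above all others, and TLSMG below all others. The difference was -0.97 ± 0.12 (limma adjusted p 2.77e-05), and it was -0.96 after the GC and length correction.

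Ndufv3, an accessory subunit of the NADH-oxidizing module of complex I (chr17:31520115-31531326 on the plus strand), read 156, 147 and 156 TPM in 96h and 101, 111 and 116 in TLSMG. Gastruloid was intermediate at 129, 125 and 133 TPM, overlapping neither. The TLSMG minus 96h difference was -0.48 ± 0.06 (limma adjusted p 4.65e-05). Atp5g1, one of the genes for the c subunit (chr11:96068852-96075670 on the minus strand), read 165, 170.1 and 176 TPM in 96h and 131, 118 and 130.1 in TLSMG (-0.43, limma adjusted p 0.00218, and -0.70 after the correction). Sdha fell by 0.28 ± 0.05 (limma adjusted p 0.000675), and by 0.44 after the correction.

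The rises in TLSMG over 96h were less stable. Cox6c, a small complex IV subunit, read 174, 180.2 and 178 TPM in 96h and 325, 256 and 226 in TLSMG (0.58 ± 0.16, limma adjusted p 0.00897). All TLSMG values were higher, but they spread widely, and with median-of-ratios scaling the limma adjusted p was 0.0977. Cyc1, the cytochrome c1 of complex III, read 169.8, 138 and 142 TPM in 96h and 209, 178 and 219 in TLSMG (0.43 ± 0.16, limma adjusted p 0.0468), and its call was lost without the second or the third 96h library, or without the first or the third TLSMG library. With median-of-ratios scaling Cyc1 stood at 0.25 (limma adjusted p 0.3) and after the GC and length correction at 0.40 (limma adjusted p 0.0716), and 15 of 23 alternatives in all did not hold its call. Atp5s was called (0.64, limma adjusted p 0.00124), but not after the GC and length correction (0.21, limma adjusted p 0.146). Cox6c2 rose by 0.73 (limma adjusted p 0.000513). Of the 7 higher calls, median-of-ratios scaling held 2, Cox6c2 and Atp5s, and the correction held 3, Ndufb6, Cox6c and Cox6c2.

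More members were called lower than in 96h under other scalings. With median of ratios there were 2 higher and 43 lower, and with the GC and length correction 4 and 38. The excess of higher calls among all genes was then gone, with 3138 higher and 3345 lower under the first and 2964 and 3464 under the second. All 21 lower calls remained called lower under both. Of the 28 members called here and the 25 called in Gastruloid minus 96h, 11 were the same genes, and both comparisons use the 96h libraries. Their signs were alike in 10 of the 11, the exception being Ndufa13, an accessory subunit of complex I, with 159.9 ± 7.46 TPM in Gastruloid, 135 ± 5.65 in 96h and 109.8 ± 2.42 in TLSMG. The overlap of calls was not counted over all genes.

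**Figure D3:**
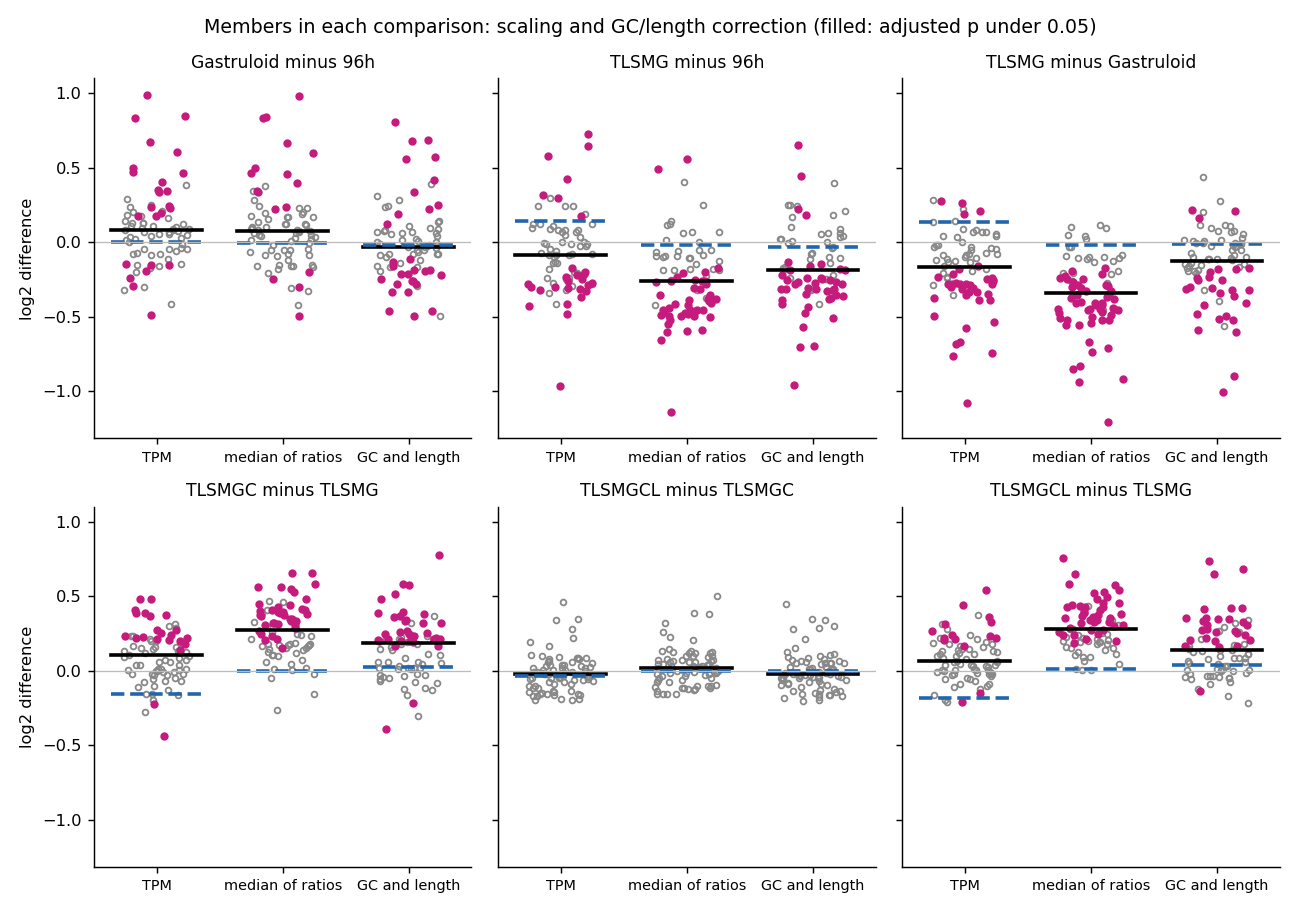
Log2 differences of the 78 members in the 6 comparisons (panels) on 3 scalings (TPM, median of ratios, and TPM corrected for GC content and length), with filled points for members at a limma adjusted p under 0.05, a black line at the member median and a blue dashed line at the all-gene median. The member median of TLSMG minus Gastruloid lies below 0 and those of TLSMGC minus TLSMG and TLSMGCL minus TLSMG above it on all 3 scalings, with values of -0.17, 0.10 and 0.07 on the TPM scale.

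At 120 h, many members were lower in Matrigel than in gastruloids. TLSMG minus Gastruloid called 4 members higher and 33 lower of 78, with 31.5% of all genes called higher, 7.87% lower and 39.3% in either direction. The member median was -0.17 against 0.13 for all genes, a gap of -0.30. In 39 members all TLSMG libraries lay below all Gastruloid libraries, and in 6 all lay above, against 12.8% and 39.4% of all genes. The lower calls fell on 15 of the 28 accessory and 1 of the 7 core subunits of complex I, on Uqcrh, Uqcrq, Uqcr10 and Uqcr11 in complex III, on 7 of 14 in complex IV and on 6 of 15 in complex V. The 4 higher ones were Ndufs1, Sdha, Uqcrb and Atp5f1. Core subunits of complex I had a median length of 1623 bases and accessory ones 747.5, and this comparison varied with length, as given below. The lower call of the core subunit Ndufs8 and several of those of accessory subunits were not held by the GC and length correction. Core and accessory subunits were not compared at like length.

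Cox7a1 showed the largest fall: 2.23, 2.43 and 2.79 TPM in TLSMG against 6.22, 6.54 and 6.34 in Gastruloid, a difference of -1.08 ± 0.19 (limma adjusted p 0.000882). Atp5e read 241, 229.7 and 283 TPM in TLSMG (-0.77 ± 0.14, limma adjusted p 0.00122). Both groups were well separated in each gene. Cox6b2 fell by 0.67 ± 0.12 (limma adjusted p 0.00119) and Ndufa11 by 0.75 ± 0.19 (limma adjusted p 0.0072). After the GC and length correction the Ndufa11 difference was -0.56, at a limma adjusted p of 0.054.

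Ndufb8, an accessory subunit in the membrane arm of complex I (chr19:44548572-44555440 on the minus strand), read 595, 615 and 502 TPM in Gastruloid and 362, 361 and 340.0 in TLSMG. It lay at 401, 460.4 and 429 TPM in 96h, so the gastruloids stood above the 96 h aggregates and the TLSMG structures below. The difference TLSMG minus Gastruloid was -0.68 ± 0.12 (limma adjusted p 0.000808). Of the 75-base windows of Ndufb8 transcripts, 9.9% also occur in another gene, the overlapping Gm20538.

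Other accessory subunits of complex I followed with smaller steps. Ndufb2 fell by 0.57 (limma adjusted p 0.0074), Ndufa13 by 0.54 (limma adjusted p 0.000696) and Ndufa7 by 0.50 (limma adjusted p 0.00115). Uqcrq in complex III fell by 0.39 (limma adjusted p 0.0154), a call lost without the second or the third TLSMG library, and Uqcrh, the hinge protein, by 0.38 (limma adjusted p 0.000475). The core subunit Ndufs1 went the other way, from 84.4, 92.2 and 91.8 TPM in Gastruloid to 106, 109.7 and 109.7 in TLSMG (0.28 ± 0.06, limma adjusted p 0.00455). Sdha, with a rise of 0.21 ± 0.05 (limma adjusted p 0.00597), joined it.

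Neither of those rises was independent of the processing. Under median-of-ratios scaling and under the GC and length correction, none of the 4 higher calls remained: Ndufs1 stood at 0.10 and 0.01, and Sdha at 0.04 and 0.03 (limma adjusted p 0.524 and 0.687). The lower calls numbered 53 under median of ratios, which held all 33, and 25 under the correction, which held 18 of the 33. All genes had 2745 higher and 2584 lower under the first, 1576 and 1343 under the second, and 2576 and 2602 with FPKM, so the excess of higher calls seen on the TPM scale was not present there. The 15 not held were Ndufa2, Ndufa3, Ndufa6, Ndufa11, Ndufb4, Ndufb9, Ndufb10, Ndufs6, Ndufs8, Uqcr10, Cox6a1, Cox8a, Atp5g2, Atp5k and Atp5l. Across 14283 genes the log2 difference had r = -0.42 with GC content and r = 0.35 with log2 length, and across the members -0.36 and 0.28. The 39 shorter members had 24 lower and 1 higher calls with a median of -0.27, the 39 longer ones 9 lower and 3 higher with a median of -0.09.

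**Figure D4:**
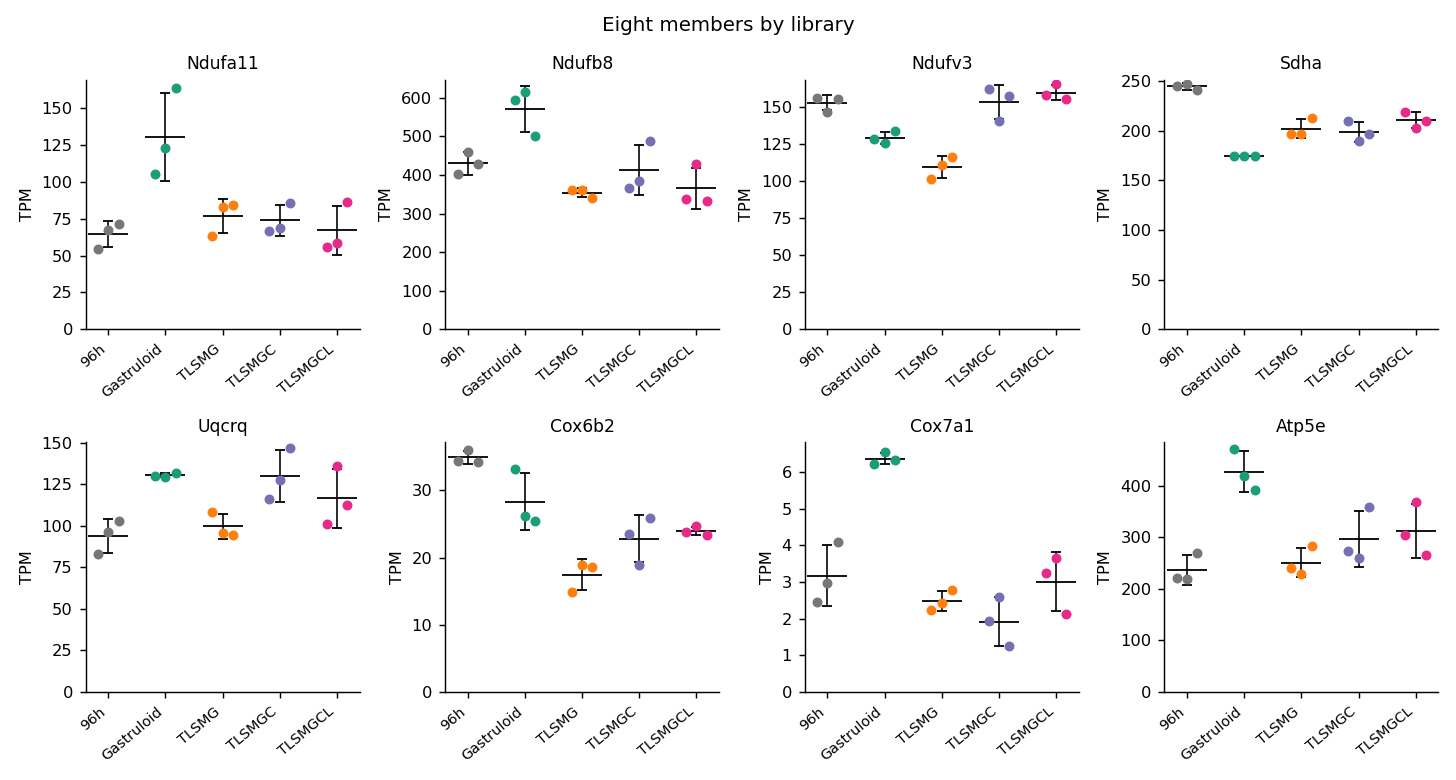
TPM per library (points, grouped by condition on the horizontal axis) of 8 members, with group mean and SD (n = 3). Ndufa11, Ndufb8, Cox7a1 and Atp5e are highest in the Gastruloid libraries, Sdha and Cox6b2 are highest in 96h, and Ndufv3 is lowest in TLSMG.

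With CHIR99021 added in Matrigel, more members rose than fell, whereas more genes fell than rose on the TPM scale. TLSMGC minus TLSMG called 20 members higher and 2 lower of 78, with 10.4% of all genes called higher, 30.5% lower and 40.9% in either direction. The member median was 0.10 against -0.16 for all genes, a gap of 0.26, and the member median was 0.06 without the third TLSMGC library. All genes had 2744 higher and 2564 lower with median-of-ratios scaling and 3136 and 2413 after the GC and length correction. The higher calls comprised 6 subunits of complex I (Ndufa6, Ndufa10, Ndufc2, Ndufs7, Ndufs8, Ndufv3), 5 of 9 in complex III (Uqcrfs1, Uqcrc2, Uqcrh, Uqcrq, Uqcr11), 5 in complex IV (Cox6b1, Cox6b2, Cox7a2, Cox7b, Cox8a) and 4 in complex V (Atp5b, Atp5d, Atp5g1, Atp5o). None lay in complex II, where the largest difference was that of Sdhd (0.14, limma adjusted p 0.0502). The lower ones were Atp5j2 and Uqcrb.

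Cell type markers differed along with these members. Endothelial markers summed to 9.36 to 33.9 TPM in TLSMGC and 5.87 to 9.99 in TLSMGCL, below the TLSMG range. Presomitic markers summed to 127 to 161 TPM in TLSMGC and 102.5 to 113 in TLSMGCL, above TLSMG (21.5 to 29.2). Neural tube markers summed to 26.4 to 30.8 TPM and 31.5 to 35.7, below TLSMG (86.3 to 127), and the pluripotency genes Pou5f1, Nanog, Zfp42 and Dppa5a to 31.3 to 61.9 TPM and 55.0 to 70.0, also below TLSMG (99.96 to 128). Their part in the differences of the members was not tested.

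Atp5g1 read 169.6, 166 and 196 TPM in TLSMGC against 131, 118 and 130.1 in TLSMG (0.48 ± 0.09, limma adjusted p 0.0012, and 0.78 after the GC and length correction). Ndufv3 read 162, 140.2 and 157 TPM against 101, 111 and 116 (0.48 ± 0.06, limma adjusted p 6.4e-05). In both genes the 2 groups were apart, and the TLSMGC range overlapped that of 96h. Cox8a, a small subunit of complex IV, read 607, 625 and 722 TPM against 495, 484 and 508 (0.39 ± 0.06, limma adjusted p 0.000356). Uqcr11, a small subunit of complex III, read 275, 284 and 319 TPM against 219.7, 217 and 232 (0.39 ± 0.08, limma adjusted p 0.0016).

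Catalytic subunits were among the genes that rose. Uqcrfs1, the Rieske iron-sulfur protein of complex III, rose by 0.22 (limma adjusted p 0.00966), and Uqcrc2, a core protein, by 0.24 (limma adjusted p 0.00168). Atp5b rose by 0.21 (limma adjusted p 0.0421), from 1385 ± 14.0 to 1609 ± 95.0 TPM. Atp5d, the delta subunit of the ATP synthase head, read 374, 283 and 409 TPM in TLSMGC and 247, 298 and 249 in TLSMG (0.41, limma adjusted p 0.0175). Its groups overlapped, and the call was lost without any 1 of 4 libraries, the first and the third of each group. Atp5j2, a membrane subunit of complex V, read 159, 219 and 169 TPM in TLSMGC against 237, 246 and 253 (-0.44 ± 0.12, limma adjusted p 0.012), a call not held by median-of-ratios scaling (limma adjusted p 0.131) or without the first TLSMGC library.

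The third TLSMGC library, which stood apart, carried part of this count. Without it, 10 members were called higher and 2 lower, and all genes had 1199 higher and 3504 lower. With that library and the second TLSMGCL library both left out, an alternative chosen after the data were seen, 14 were higher and 3 lower. All genes then had 1330 higher and 4055 lower. Under the GC and length correction 31 members were higher and 2 lower. Under median-of-ratios scaling 38 were higher and 0 lower, and each of these 2 settings included all 20 of the higher calls. Of the 33 members called lower in TLSMG minus Gastruloid, 11 were called higher here (Ndufa6, Ndufs8, Ndufv3, Uqcrh, Uqcrq, Uqcr11, Cox6b1, Cox6b2, Cox8a, Atp5g1 and Atp5o), 11 of the 20 higher calls. These 2 comparisons share the TLSMG libraries, so the count is no independent sign of a reversal. The same overlap was not counted over all genes.

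LDN on top of CHIR99021 gave no called member. TLSMGCL minus TLSMGC called 0 of 78 with limma, with 1.18% of all genes called (0.406% higher and 0.777% lower), and 6 members had an unadjusted p under 0.05. The count was also 0 under median-of-ratios scaling, FPKM and the GC and length correction. Log2 differences ran from -0.20 to 0.46, the member median was -0.02 and the smallest limma adjusted p was 0.136. The largest difference in each complex was that of Ndufa5 (0.34, limma adjusted p 0.288), Sdhc (0.10, limma adjusted p 0.52), Uqcrq (-0.16, limma adjusted p 0.598), Cox7a1 (0.46, limma adjusted p 0.311) and Atp5j2 (0.35, limma adjusted p 0.229). Differences of this size were thus not called with 3 libraries a group, and the absence of a call does not show that levels were alike. All genes had 104 higher and 101 lower with median-of-ratios scaling, 90 and 112 with FPKM and 155 and 144 after the GC and length correction.

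With both compounds set against Matrigel alone, TLSMGCL minus TLSMG called 13 members higher and 2 lower of 78, with 9.31% of all genes called higher, 35.6% lower and 44.9% in either direction. The member median was 0.07 against -0.18 for all genes, and the member median was 0.04 without the second TLSMGCL library. Ndufv3 read 158, 165 and 156 TPM in TLSMGCL, clear of the TLSMG libraries (0.54 ± 0.06, limma adjusted p 1.84e-05). Cox6b2 rose by 0.44 (limma adjusted p 0.0101), Uqcr11 by 0.36 (limma adjusted p 0.00244) and Cox8a by 0.31 (limma adjusted p 0.00159). Atp5g1 rose by 0.33 (limma adjusted p 0.0121), a call lost without the second TLSMGCL or the second TLSMG library. Sdhd, the largest difference in complex II, was at 0.11 (limma adjusted p 0.0963).

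The other higher members were Ndufa7, Ndufb11, Uqcrc2, Uqcrfs1, Uqcrh, Cox6b1, Atp5a1 and Atp5b, and the lower ones Uqcrb and Cox7c. Without the second TLSMGCL library 7 were higher and 2 lower, and without the second TLSMG library again 7 and 2. All genes had 1128 higher and 3952 lower without the former and 1058 and 4246 without the latter. With the 2 libraries that stood apart left out, 12 members were higher and 2 lower, and all genes had 1232 and 4252. Under median-of-ratios scaling 43 members were higher and 0 lower, and under the GC and length correction 27 higher and 1 lower. Both scalings held all 13 higher calls. All genes had 2840 higher and 2740 lower under the first and 3118 and 2412 under the second.

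Across the 6 comparisons, 58 of the 78 members were called at least once and 20 never. The share of all tested genes called at least once was not counted, so these numbers show nothing particular to the members. Among the core and catalytic subunits described here, Ndufv1 of complex I, Sdhb of complex II and Cox4i1 and Cox5a of complex IV were called in none. Cox4i1 varied widely within groups: it read 397, 585 and 599.6 TPM in TLSMG and 673, 442 and 504 in TLSMGC. Sdhb means lay between 173 ± 10.2 TPM in 96h and 189 ± 7.45 in Gastruloid. Atp5a1 was called lower in TLSMG than in 96h (1007 ± 56.8 against 1165 ± 34.2 TPM, limma adjusted p 0.0126) and higher in TLSMGCL than in TLSMG (1190.0 ± 47.0 TPM, limma adjusted p 0.00617). Atp5b was lower in Gastruloid and TLSMG than in 96h, and higher in TLSMGC and TLSMGCL than in TLSMG, within 1385 to 1738 TPM of group mean.

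Several subunits are encoded by paralogues, and the share of each within its family does not depend on library scaling. Atp5g1, Atp5g2 and Atp5g3 encode the same mature c subunit with different import sequences. In the 96h libraries, Atp5g1 made up 15.1% to 15.3% of their TPM. Gastruloid libraries ranged from 12.6% to 14.5%, those of TLSMG from 11.3% to 11.8%, those of TLSMGC from 14.6% to 15.2% and those of TLSMGCL from 13.2% to 15.5%. The TLSMG range lay below all others. Atp5g3 averaged 52.2% in 96h, 51.7% in Gastruloid, 57.6% in TLSMG, 57.8% in TLSMGC and 56.6% in TLSMGCL, so its share was higher in the Matrigel groups. The Atp5g2 share was lowest in TLSMGC (27.3%) and highest in Gastruloid (34.5%), although 86.9% of Atp5g2's 75-base windows also occur in other genes, which makes its level uncertain. As Atp5g2 is part of the family total, the Atp5g1 and Atp5g3 shares carry this uncertainty too.

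In complex IV, Cox6b2 supplied 6.80% ± 0.201 (SD, n = 3) of the Cox6b1 and Cox6b2 TPM in 96h, 5.07% ± 0.465 in Gastruloid, 3.84% ± 0.409 in TLSMG, 4.35% ± 0.629 in TLSMGC and 4.51% ± 0.0801 in TLSMGCL. Cox7a1 supplied 1.95% of the Cox7a1 and Cox7a2 TPM in Gastruloid and between 0.573% and 0.968% on average in the other groups. The ubiquitous paralogue therefore made up nearly all of the RNA in each pair. Over the 36 exact two-sided permutation tests of these shares, 3 libraries against 3 cannot give a p below 0.1, and the exact adjusted p was 0.18 where groups did not overlap, so none passed.

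**Figure D5:**
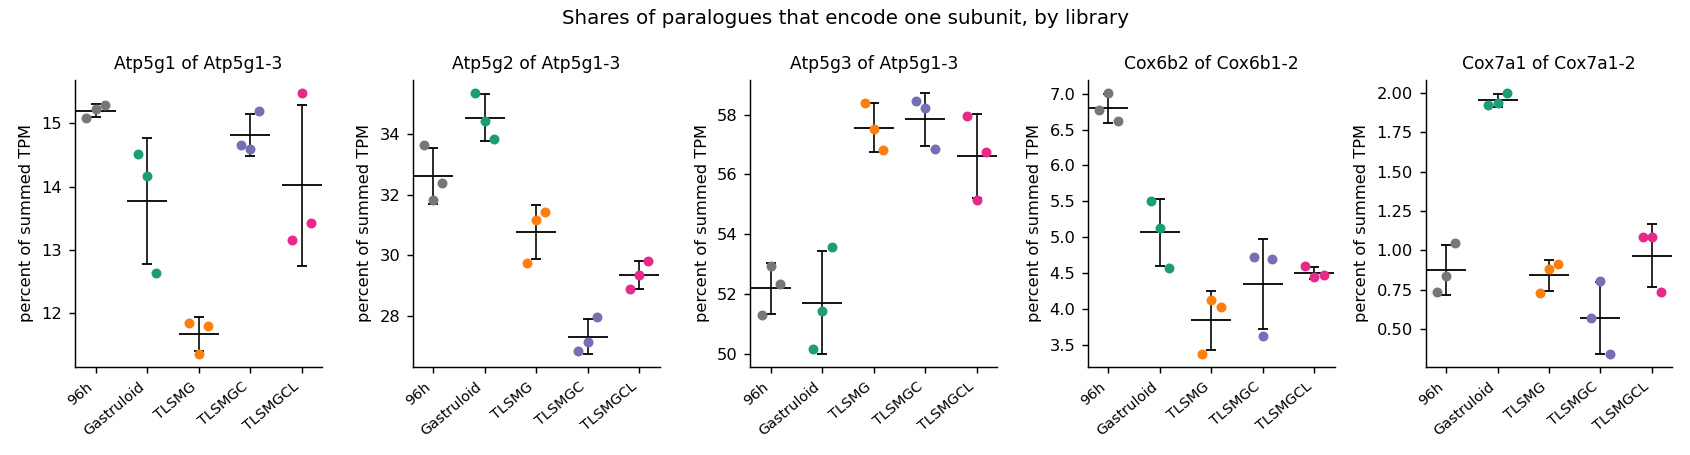
Share, in percent, of Atp5g1, Atp5g2 and Atp5g3 in their summed TPM, of Cox6b2 in Cox6b1 plus Cox6b2, and of Cox7a1 in Cox7a1 plus Cox7a2, per library (points) with group mean and SD (n = 3). Atp5g1 is lowest in TLSMG, Atp5g3 is higher in the 3 Matrigel groups, Cox6b2 is highest in 96h and Cox7a1 in Gastruloid.

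The mitochondrially encoded partners did not follow the nuclear ones. Of the 13 subunits on chrM, 12 were called higher and 0 lower in TLSMG minus Gastruloid, with a median of 1.68, where 33 nuclear members were lower. They were 0 higher and 5 lower in Gastruloid minus 96h, 2 and 0 in TLSMG minus 96h, 0 and 0 in TLSMGC minus TLSMG and in TLSMGCL minus TLSMGC, and 0 and 3 in TLSMGCL minus TLSMG. The 12 higher calls were 92.3% of the list, against 31.5% of all genes, and the 5 lower ones 38.5% against 20.5%. The 2 higher calls (15.4%) and the 3 lower ones (23.1%) were under the shares of all genes (33.5% and 35.6%). The TPM of all chrM genes ran from 3578 to 4381 in Gastruloid and from 10010.9 to 15201 in TLSMG. With chrM genes left out of the TPM, the difference of the nuclear sum between TLSMG and Gastruloid was -9.46%.

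Other nuclear gene lists give the frame. Their calls were counted on the TPM scale only and are to be read beside the shares of all genes. All genes had 31.5% higher and 7.87% lower in TLSMG minus Gastruloid, and 10.4% and 30.5% in TLSMGC minus TLSMG. The shares were 9.31% and 35.6% in TLSMGCL minus TLSMG, 33.5% and 12.5% in TLSMG minus 96h, and 20.8% and 20.5% in Gastruloid minus 96h. Cytosolic ribosomal proteins, short and very highly expressed genes, had 0 higher and 51 lower of 80 in TLSMG minus Gastruloid, 65 and 0 in TLSMGC minus TLSMG and 62 and 0 in TLSMGCL minus TLSMG. Mitochondrial ribosomal proteins, which translate the chrM subunits, had 5 higher and 12 lower of 78, 13 and 2, and 7 and 6 in the same comparisons. In TLSMG minus 96h the cytosolic ones had 2 higher and 36 lower and the mitochondrial ones 11 and 7. The median length of the members, 849.5 bases, was close to that of the cytosolic ribosomal proteins (874.5) and shorter than that of all tested genes (2640), and the median GC content was 51.4% in members and 50.5% in all tested genes.

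Assembly factors, which build the complexes without remaining in them, showed mixed calls. Those of complex I had 2 higher and 0 lower of 15 in TLSMG minus Gastruloid and 1 and 1 in TLSMGC minus TLSMG, those of complex IV 6 and 3 of 23 and 2 and 4, and those of complexes II, III and V 2 and 3 of 13 and 1 and 4. In that order, 13.3%, 26.1% and 15.4% were higher in TLSMG minus Gastruloid, against 31.5% of all genes. In TLSMGC minus TLSMG 6.67%, 17.4% and 30.8% were lower, against 30.5% of all genes. The pyruvate dehydrogenase and citric acid cycle enzymes, which supply the NADH and succinate, had 0 higher and 8 lower of 16 in Gastruloid minus 96h, 8 and 0 in TLSMG minus Gastruloid and 7 and 1 in TLSMGC minus TLSMG. The direction between TLSMG and Gastruloid depended on the scale. On the TPM scale this list summed to 1933 ± 33.6 in Gastruloid and 2079 ± 52.6 in TLSMG. With median-of-ratios scaling the sums were 1966 ± 11.8 and 1876 ± 10.3, so TLSMG was then lower. Pdha1, a pyruvate dehydrogenase subunit, read 204 ± 8.15 TPM in 96h, 114 ± 4.10 in Gastruloid, 129 ± 6.54 in TLSMG and 194 ± 3.23 in TLSMGC. Glycolysis genes had 13 higher and 1 lower of 18 in TLSMGC minus TLSMG, and 1 and 9 in both comparisons with 96h.

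Regulators of mitochondrial biogenesis had 1 higher and 6 lower of 14 in Gastruloid minus 96h, 7 and 1 in TLSMG minus Gastruloid, 2 and 4 in TLSMGC minus TLSMG and 2 and 7 in TLSMGCL minus TLSMG. The lower calls were 42.9% of the list in Gastruloid minus 96h, against 20.5% of all genes. In TLSMGC minus TLSMG they were 28.6% against 30.5%, and in TLSMGCL minus TLSMG 50% against 35.6%. The higher calls in TLSMG minus Gastruloid were 50% against 31.5%. Nrf1 itself, the factor whose sequence was searched for above, stood at 46.0 ± 2.47 TPM in 96h, 36.3 ± 3.01 in Gastruloid and 37.8 ± 1.08 in TLSMG. Ppargc1a, a coactivator prominent in muscle and brown fat, averaged under 0.1 TPM in each group and was not tested. Of 8 subunits and related proteins outside the naming pattern, 2 were higher and 2 lower in Gastruloid minus 96h, near the shares of all genes (20.8% and 20.5%). Usmg5 of ATP synthase (0.61, limma adjusted p 0.000122) and Ndufb1-ps (0.79, limma adjusted p 1.98e-06) were higher. Ndufa4l2, a paralogue of Ndufa4, was lower, at 0.189 ± 0.218 TPM against 4.09 ± 1.42 in 96h (limma adjusted p 3.73e-06).

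The 6 members below the filter were mostly paralogues known from differentiated tissues. Cox4i2, an alternative form of Cox4i1, read 2.67, 2.97 and 2.59 TPM in 96h and at most 1.11 TPM in every library at 120 h. All 96h libraries thus lay above all others, and the 3 made up 0.368% to 0.426% of the Cox4i1 and Cox4i2 TPM. The muscle form Cox6a2 was listed at 0 except for 0.129 TPM in the second TLSMG and 0.283 TPM in the third TLSMGCL library. Cox7b2, Cox8b, Cox8c and the other Atp5o ID were listed at 0 in all 15 libraries, and 83.8% of the 75-base windows of that ID occur in the expressed Atp5o gene or elsewhere. Restricting the members to the 51 tested genes with no shared 75-base window, a restriction chosen after the data were seen, left 2 higher and 16 lower in TLSMG minus Gastruloid and 16 and 0 in TLSMGC minus TLSMG.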

How the data were processed

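Bulk RNA of 15 libraries in 5 groups was analysed. Per the submitters' processing notes, cutadapt 2.4, STAR 2.7.3a, StringTie 2.0 and the build mm10 were used. The deposited tables hold TPM, FPKM and coverage per gene, per the file headers. No counts are held in them, and depth is known only in relative terms: the deposited coverage per FPKM ran from 1.85 to 4.06. Rows of 1 gene ID were summed. Log2(TPM + 1) values of genes with a mean of at least 1 TPM were fitted with limma 3.58.1 in R 4.3.3 (trend, 5 groups, Benjamini-Hochberg, threshold 0.05), and figures and sums were made in Python 3.11.15. On simulated data for TLSMG minus Gastruloid over 14290 genes, 60% of changes of 0.5 and 96% of changes of 1 (log2) were recovered. Only a small set of the better expressed genes was changed there, whereas 39.3% of genes were called in the data. The recovered shares therefore do not give the sensitivity of the tests reported here.

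GC content and length came from GENCODE M21 transcripts and were corrected by splines with 5 degrees of freedom each. In the GENCODE M21 annotation 79 of the 84 members have the start and end of the tables. Shared sequence was counted in 75-base windows. The kit is stranded, but the strand setting of the counting is not given in the sources used here, and 25 members overlap an exon on the opposite strand, so their reads may not be fully separate.

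Members and lists were chosen with earlier results of these data known. Named in each comparison are the 5 called members with the largest log2 difference and at least 5 TPM in the higher group, the largest difference in each complex, paralogue families, core subunits and members below the filter; others named were chosen after their values were seen. The labels speak of 3 biological replicates per group. Alternatives were other pseudocounts, filters, scalings, FPKM, GC and length corrections, a replicate block and leaving out each library. The values of 1 tested member are not reported here by name; it remains in the counts and sums.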

Additional observations from a re-analysis of the deposited data

How the results depend on the processing

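The count of called members changed by over 1.5 times in some settings. With a minimum log2 difference of 0.5 it was 6 in Gastruloid minus 96h (6 higher, 0 lower) and 4 in TLSMG minus 96h (3 higher, 1 lower). The latter direction is opposite to the 7 higher and 21 lower calls without a minimum. The member count was 7 in TLSMG minus Gastruloid (0 higher, 7 lower), 0 in TLSMGC minus TLSMG and 1 in TLSMGCL minus TLSMG (1 higher, 0 lower). Of 14290 genes, 1624 were then higher and 1456 lower in the first, 2766 and 909 in the second and 2182 and 349 in the third. In the last 2 there were 531 and 2222, and 519 and 2644. In TLSMG minus 96h, TLSMGC minus TLSMG and TLSMGCL minus TLSMG the member count was 45, 38 and 43 with median-of-ratios scaling. With GC correction alone it was 43, 46 and 45. All genes had 2850 higher and 3294 lower, 3065 and 2496, and 3115 and 2570 with that correction. In TLSMGCL minus TLSMG the member count was 29 with FPKM and 28 with the GC and length correction or length alone. It was 27 with the replicate block and the GC and length correction. All genes had 2037 higher and 3222 lower with FPKM, 3038 and 2323 with length alone and 2990 and 2349 with the block and correction. Leaving out 1 library of the compared groups gave 16 to 24, 23 to 28, 25 to 36, 12 to 23 and 9 to 18 members in these 5 comparisons. In TLSMG minus Gastruloid the lowest count came without the second TLSMG library, where all genes had 3642 higher and 837 lower. Leaving out a library of another group changes the shared spread: without the second TLSMGCL library the first 4 member counts were 28, 34, 38 and 26. All genes then had 3128 higher and 3200 lower, 5043 and 1863, 4727 and 1193, and 1566 and 4778.

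The member median of Gastruloid minus 96h was 0.17 with FPKM and reversed in sign to -0.033 with the GC and length correction (with or without the replicate block) and with length alone. With FPKM, median of ratios, GC and length (with or without the replicate block) and GC alone it was -0.17, -0.26, -0.19 and -0.26 in TLSMG minus 96h, -0.34, -0.34, -0.13 and -0.28 in TLSMG minus Gastruloid, 0.21, 0.27, 0.18 and 0.27 in TLSMGC minus TLSMG, and 0.20, 0.28, 0.14 and 0.28 in TLSMGCL minus TLSMG. With length alone it was -0.20, 0.19 and 0.16 in TLSMG minus 96h, TLSMGC minus TLSMG and TLSMGCL minus TLSMG. In TLSMG minus Gastruloid it was -0.22 for TPM without chrM and cytosolic ribosomal protein genes and -0.21 for TPM over protein-coding genes outside chrM.

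The percent difference of the summed members was 8.12, -14.0, -20.5, 17.7 and 18.2 with FPKM in the 5 comparisons, and -19.2, -20.3, 22.9 and 25.1 with median of ratios in the last 4. The cause was not tested.

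Relative to the all-gene median, the members stayed on the same side in every setting except in Gastruloid minus 96h (-0.02 to 0.10) and TLSMGCL minus TLSMGC (-0.07 to 0.08). The size of the gap was not stable. It ran from -0.25 to -0.11 in TLSMG minus 96h and from -0.34 to -0.12 in TLSMG minus Gastruloid. In TLSMGC minus TLSMG it ran from 0.13 to 0.30, and in TLSMGCL minus TLSMG from 0.10 to 0.29. With the GC and length correction it was -0.16, -0.12, 0.16 and 0.10 in that order, against -0.23, -0.30, 0.26 and 0.25 on the TPM scale. For the 33 named differences that were called, 706 alternative values kept the call and 60 lost it. For the 7 that were not, 148 stayed without a call and 19 gained one, and none of the 40 reversed. Same-numbered replicates did not deviate together (mean r -0.07 to 0.03). The replicate block gave 20, 28, 34, 19, 0 and 13 called members, the comparisons in the order of the report.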
